A study of Mus musculus with 7 samples.

Results

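The Polycomb group genes described here are 36 genes listed by name for their known roles and the rule that finds them in the table uses no measured difference between genotypes. They comprised 6 genes of the core of Polycomb repressive complex 2 (PRC2), 5 genes of its accessory subunits, 20 genes of the subunits of Polycomb repressive complex 1 (PRC1), and 5 genes of the enzymes and cofactors that remove the Polycomb marks. The data were a table of 33437 oocyte transcript entries, each given a gene name and a strand, in which isoforms had been merged. For 27 of the 36 genes the table held an entry under the gene's own name and strand, and the entry with the highest mean was used where there were several. A further 7 genes (Rbbp4, Cbx7, Phc1, Kdm2b, Bap1, Asxl1 and Asxl2) were found under a neighbour's name, and their entries were taken where the entry and the GENCODE gene shared at least 0.5 of their joint span on the same strand. Phf1 and Cbx6 lay in entries merged with the neighbours Kifc5b and Nptxr and were not analysed here.

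RNA was sequenced from single germinal vesicle (GV) oocytes, the fully grown, meiotically arrested oocytes of the ovary, taken from 21-day-old C57BL6 females (the lines were kept on C57BL/6OlaHsd, per the study's methods). The 4 Setd1b cKO libraries came from females homozygous for floxed Setd1b and positive for Gdf9-Cre, a recombinase expressed in the oocyte from early follicle growth. The 3 Setd1b WT libraries are labelled as homozygous for the same floxed alleles without Gdf9-Cre. The study's methods also count females with Gdf9-Cre and a single Setd1b allele deleted as WT, so whether Cre and the floxed alleles were matched between these libraries is not settled here, and an effect of Cre cannot be told apart from the loss of Setd1b where the labels hold. SETD1B is a methyltransferase for lysine 4 of histone H3 (H3K4), and the comparison asked how transcript levels in the oocyte differed without it.

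Polycomb proteins keep genes repressed through a pair of histone marks. PRC2 methylates lysine 27 of histone H3 through EZH1 or EZH2, which act only with EED and SUZ12. PRC1 attaches ubiquitin to histone H2A through RING1 or RNF2, each paired with one of the PCGF proteins, and the PCGF partner sets the type of complex: PCGF2 or BMI1 in canonical PRC1, which reads H3K27me3 through a CBX protein, and the others in variant PRC1 with RYBP or YAF2. In the growing oocyte, Polycomb marks cover broad regions outside active genes, and H3K27me3 of maternal origin silences a few genes in the early embryo and placenta.

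Each library held between 8582493 and 12972366 mapped reads, so that 1 read was worth 0.0771 to 0.117 RPM. RPM, the unit used throughout, is the number of reads scaled to the mapped total of its library. The share of reads outside the table's transcripts was 13.2% to 16.4% in the cKO and 9.57% to 9.90% in the WT, and its part in the differences below was not tested beyond the rescaling given with them. Of 12 oocyte markers, 11 had an entry, and their summed level was 21179 to 22271 RPM in the cKO and 25266 to 26550 RPM in the WT. Of 18 granulosa cell markers, 8 stayed under 1 RPM in every library, Foxl2, Amh and Krt18 had at most 2 reads in any library, and the sum of all 18 was 155 to 186 RPM in the cKO and 199.7 to 230.2 RPM in the WT. Esr2, which the oocytes held at 86.8 ± 8.42 RPM in the cKO and 148 ± 12.4 RPM in the WT (SD, n = 4 and 3), carried that order, and the other 17 summed to 78.5 to 91.5 RPM in the cKO and 50.6 to 71.8 RPM in the WT, higher in every cKO oocyte. Of the 8 granulosa cell markers tested, 6 had a higher mean log2 level in the cKO. Of 7 markers of stroma, theca, endothelium and blood, 5 had an entry, 4 of these stayed under 1 RPM in every library, and the sum was 7.49 to 18.3 RPM in the cKO and 13.2 to 20.8 RPM in the WT. The part of these markers in the differences below was not tested. The labels do not say whether the oocytes of a genotype came from separate females, so p-values here measure the spread between oocytes. Setd1b itself, read from an entry named Gm26745, was measured at 8.31, 16.7, 12.8 and 2.68 RPM in the 4 cKO oocytes and 17.7, 16.3 and 8.61 RPM in the 3 WT oocytes, which gave a change of -0.61 ± 0.49 (SE) on the log2 scale, adjusted p = 0.533 in limma. The groups overlapped for Setd1b. Its entry spans the whole gene, so reads from outside the deleted part are counted. An entry of the other strand, also named Gm26745, shares 26428 bases with it and averaged 10.5 RPM over the 7 oocytes. The library kit marks no strand, so reads of that overlap cannot be told apart. The value of Setd1b therefore does not check the labels.

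Among the 36 genes, 30 reached 1 RPM in at least 3 libraries and were tested together with all other entries, 24 of them under their own name. Of these, 1 member, Pcgf2, passed the threshold of a Benjamini-Hochberg adjusted p under 0.05 in limma and a change over 2-fold, and it was higher in the cKO. Over all 18179 entries tested the same threshold was passed by 5.71%, with 3.76% higher and 1.95% lower in the cKO, and by 6.15% without the fold limit. None of the other 29 members had an adjusted p under 0.05, while 3 members had an unadjusted p under 0.05 against 21.7% of all entries. The median log2 fold change of the 30 members was -0.03, and that of all entries tested was 0.12. For 23 of the 30 members the 95% interval of the fold change lay wholly within 2-fold in either direction, so for these genes a 2-fold change in the mean was outside the interval. The sign of some small changes depended on the scaling. As measured, 14 members were positive and 16 negative, and the counts were also 14 and 16 with quantile normalisation. They were 9 and 21 once the median gene of every library was set equal, and 18 and 12 when reads within transcripts served as the total.

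The plot of member levels shows each oocyte separately.

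**Figure D1:**
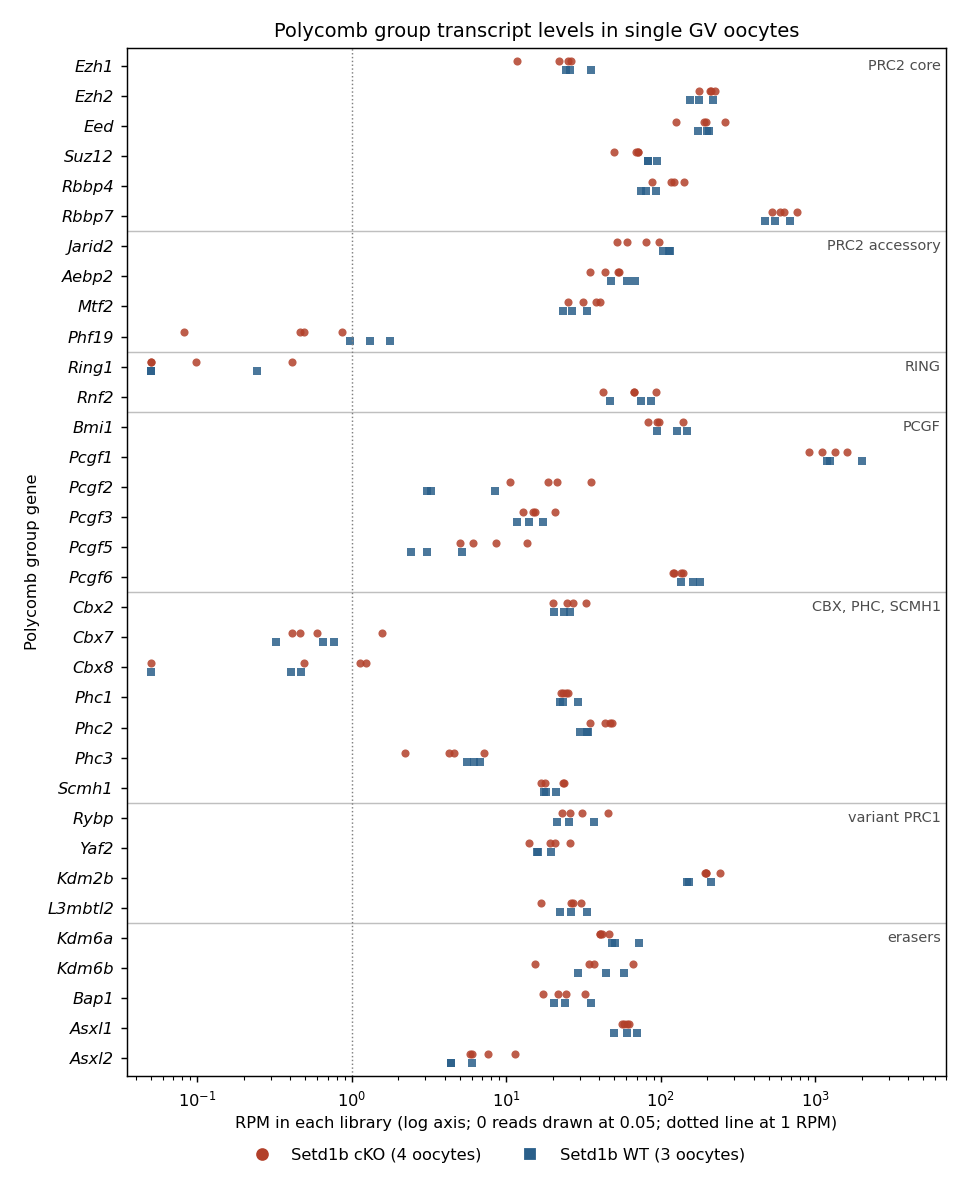
RPM of 34 Polycomb group genes in each of 4 Setd1b cKO (circles) and 3 Setd1b WT (squares) GV oocytes, on a log axis, grouped by complex. Pcgf1 lies at the top of the range, 906 to 2019 RPM, and Ring1, Cbx7, Cbx8 and Phf19 lie around or under the dotted line at 1 RPM in both genotypes.

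Levels of different genes were compared per kilobase of annotated exon, over the 7 oocytes, for the 32 members whose entry held at least 50% of the coding bases. Pcgf1, the PCGF subunit of the variant PRC1 that also holds KDM2B, was the most abundant at 818 ± 222 RPM per kilobase (SD, n = 7). Rbbp7, a histone chaperone that PRC2 shares with other complexes, followed at 207 ± 34.6 RPM per kilobase. The ranges of these genes overlapped neither each other nor that of the next gene, Eed, at 50.4 ± 10.4 RPM per kilobase. Below them, Ezh2, Pcgf6 and Bmi1 stood at 29.4 ± 3.92, 28.2 ± 4.33 and 28.2 ± 6.53 RPM per kilobase, and their ranges overlapped. Of the 31 pairs of neighbours in this order, 27 had overlapping ranges, so most of the order was not resolved by the spread between oocytes. At the low end, Ring1 stood at 0.0332 ± 0.0499 RPM per kilobase.

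All 6 genes of the PRC2 core were well detected, and none passed the test. Ezh1, the methyltransferase of the pair better known from resting cells, was measured at 24.9, 26.1, 22.0 and 11.8 RPM in the 4 cKO oocytes and 35.2, 26.0 and 24.5 RPM in the 3 WT oocytes. Its groups overlapped, with replicate 4 of the cKO the lowest of all 7, and gave a change of -0.45 ± 0.30 (SE) on the log2 scale, adjusted p = 0.428 in limma. Ezh2, the methyltransferase known from dividing cells and the oocyte, was measured at 178, 224, 208 and 212 RPM in the 4 cKO oocytes and 177, 219 and 154 RPM in the 3 WT oocytes. Its values overlapped, with a change of 0.17 ± 0.21 (SE) on the log2 scale, adjusted p = 0.699 in limma and a 95% interval of -0.28 to 0.63. Eed, the subunit that binds the methyl mark, was measured at 196, 259.8, 192 and 125 RPM in the 4 cKO oocytes and 199, 205 and 175 RPM in the 3 WT oocytes. The cKO oocytes spanned a wider range than the WT on both sides, with a change of -0.04 ± 0.25 (SE) on the log2 scale, adjusted p = 0.953 in limma. Suz12, the scaffold that holds the core together, was measured at 69.6, 71.5, 50.1 and 71.5 RPM in the 4 cKO oocytes and 82.5, 95.4 and 82.3 RPM in the 3 WT oocytes. Every cKO value lay below every WT value for Suz12, yet the difference did not pass the test, with a change of -0.41 ± 0.21 (SE) on the log2 scale, adjusted p = 0.298 in limma. The sum of the 6 core genes was 1030.2 to 1466 RPM in the cKO and 982 to 1321 RPM in the WT.

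The chaperones Rbbp4 and Rbbp7 averaged 117 ± 21.8 RPM in the cKO and 82.7 ± 9.67 RPM in the WT (Rbbp4, SD, n = 4 and 3), and 626 ± 104 RPM in the cKO and 568 ± 107 RPM in the WT (Rbbp7, SD, n = 4 and 3). The log2 fold changes were 0.48 (95% interval -0.004 to 0.97, limma adjusted p = 0.234) for Rbbp4 and 0.14 (limma adjusted p = 0.782) for Rbbp7. Rbbp4 was read from an entry named for its neighbour Sync and shares 9363 bases with an entry of the other strand that averaged 56.1 RPM in the cKO and 39.7 RPM in the WT. The library kit marks no strand and the strand setting of the count is not given in the sources used here, so reads of the overlap cannot be told apart.

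Accessory subunits steer PRC2 to its sites. Jarid2, which helps PRC2 bind and activates it, was measured at 51.8, 80.5, 98.0 and 60.4 RPM in the 4 cKO oocytes and 115, 114 and 103 RPM in the 3 WT oocytes. All cKO values lay under all WT values, with cKO replicate 3 the closest to the WT. The difference was a change of -0.64 ± 0.25 (SE) on the log2 scale, adjusted p = 0.156 in limma, with an unadjusted p of 0.025 in limma, and so did not pass once adjusted. Aebp2, the partner of Jarid2 in one form of PRC2, averaged 46.3 ± 8.92 RPM in the cKO and 58.7 ± 10.6 RPM in the WT (SD, n = 4 and 3), a change of -0.34 ± 0.24 (SE) on the log2 scale, adjusted p = 0.453 in limma with overlapping groups. Mtf2, of the Polycomb-like family that binds CpG-rich DNA and marks the other form of PRC2, averaged 33.9 ± 7.0 RPM in the cKO and 27.7 ± 5.13 RPM in the WT (SD, n = 4 and 3), a change of 0.27 ± 0.24 (SE) on the log2 scale, adjusted p = 0.583 in limma. Its relative Phf19 was measured at 0.495, 0.0824, 0.871 and 0.466 RPM in the 4 cKO oocytes and 0.972, 1.77 and 1.31 RPM in the 3 WT oocytes, which came from 1 to 10 reads a cKO oocyte and 12 to 23 reads a WT oocyte. No cKO value of Phf19 reached the lowest WT value, but the gene stayed under the filter and was not tested. The sum over Jarid2, Aebp2, Mtf2 and Phf19 was 121 to 183 RPM in the cKO and 175 to 211 RPM in the WT, ranges that overlapped.

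**Figure D2:**
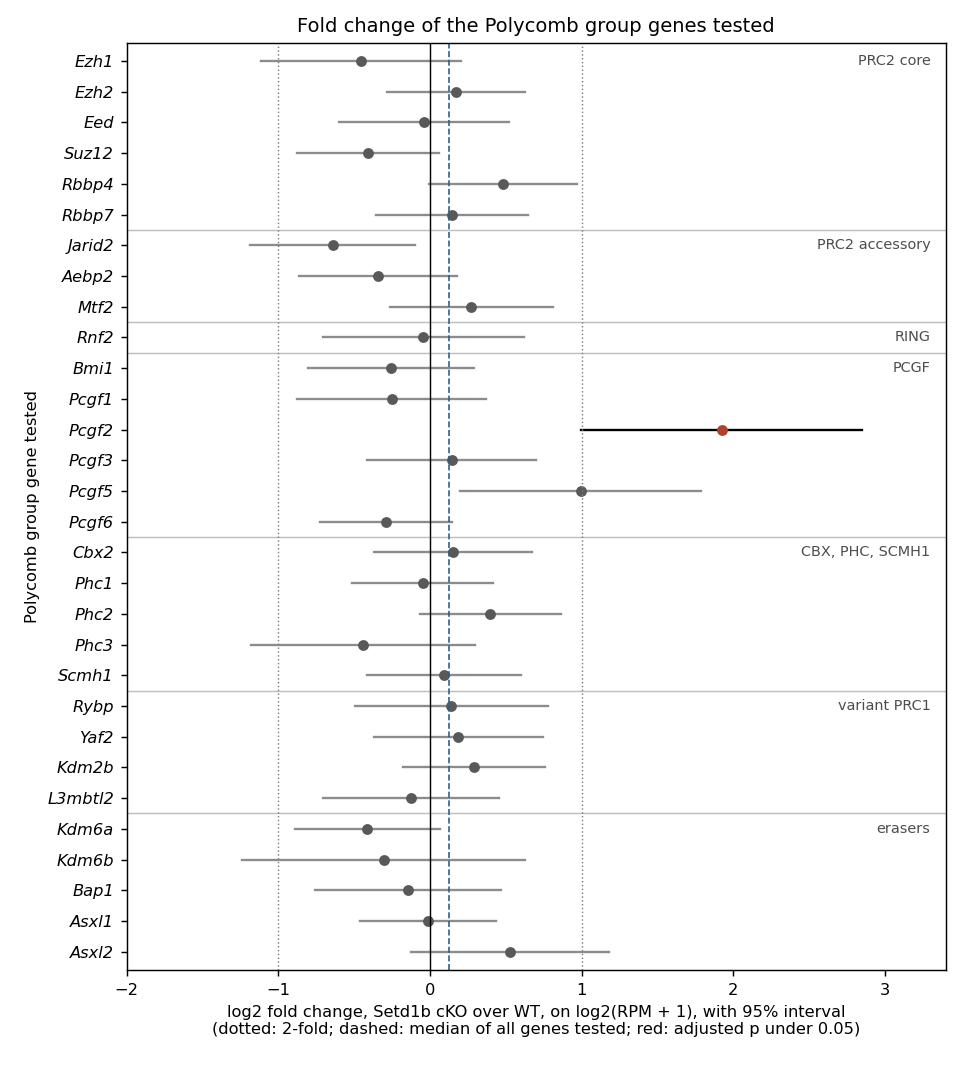
log2 fold change (Setd1b cKO over WT, on log2(RPM + 1)) with its 95% interval for the 30 Polycomb group genes tested. Dotted lines mark 2-fold, the dashed line the median of all entries tested (0.12). Pcgf2, at 1.92, is the member with an adjusted p under 0.05, and 23 intervals lie wholly between the dotted lines.

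Catalysis by PRC1 needs RING1 or RNF2, and the oocytes held the transcript of the second almost alone. Rnf2 was measured at 67.3, 92.8, 67.4 and 42.3 RPM in the 4 cKO oocytes and 86.3, 74.3 and 46.9 RPM in the 3 WT oocytes. The groups overlapped fully, with a change of -0.04 ± 0.30 (SE) on the log2 scale, adjusted p = 0.959 in limma and a 95% interval of -0.71 to 0.62. Ring1 had 0 to 5 reads in every library, or 0.099, 0.412, 0 and 0 RPM in the 4 cKO oocytes and 0.243, 0 and 0 RPM in the 3 WT oocytes. Of the 7 oocytes, 4 had 0 Ring1 reads, and 0 reads allow up to 3 reads, or 0.231 to 0.35 RPM at these depths, so a lower level was not detectable. The RefSeq promoters of both genes (250 bases before the annotated start, build GRCm38.p6) are printed because both are CpG-dense although the transcript levels lay far apart, with each CG dinucleotide in capitals.
Ring1, chr17:34024681-34024930, minus strand: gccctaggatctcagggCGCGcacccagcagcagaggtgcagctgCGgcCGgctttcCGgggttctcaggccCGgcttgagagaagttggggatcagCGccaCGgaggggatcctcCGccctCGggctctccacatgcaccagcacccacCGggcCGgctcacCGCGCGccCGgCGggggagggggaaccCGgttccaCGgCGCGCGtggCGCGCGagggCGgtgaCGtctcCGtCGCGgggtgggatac
Rnf2, chr1:151500992-151501241, minus strand: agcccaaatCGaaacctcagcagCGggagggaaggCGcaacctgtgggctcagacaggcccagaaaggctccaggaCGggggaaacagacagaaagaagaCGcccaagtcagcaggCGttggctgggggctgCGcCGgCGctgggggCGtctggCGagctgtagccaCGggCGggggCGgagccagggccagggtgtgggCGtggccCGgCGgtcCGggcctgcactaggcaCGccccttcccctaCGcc
The Ring1 promoter held 30 CG and the Rnf2 promoter 20 CG, counted as the letters CG, which read the same on both strands. Of the 32851 RefSeq mouse promoters of the same length, 5.94% held at least 30 CG and 17.9% at least 20 CG, and the median was 6. Among the 29 members with both a promoter in this table and a measured entry, the median at the start nearest to the entry was 22 CG, and 26 of 29 had at least 6. CpG density was thus high in members with high and with near-zero transcript levels, as far as these promoters belong to the measured entries. Of the 29 entries, 9 start within 100 bases of a RefSeq start. For the low genes Cbx7 and Phf19 the start lies 38539 and 11662 bases into the entry, and Pcgf1 had no promoter to count.

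Among the PCGF subunits was the member that passed the threshold. Pcgf2, which encodes a core subunit of canonical PRC1 also known as Mel18, was measured at 21.5, 10.5, 18.5 and 35.2 RPM in the 4 cKO oocytes and 3.08, 3.24 and 8.42 RPM in the 3 WT oocytes. Every cKO oocyte lay above every WT oocyte, and within each genotype the oocyte with the highest value was one of the pair that stood apart from the rest, cKO replicate 4 and WT replicate 3. The mean was 21.4 ± 10.3 RPM in the cKO and 4.91 ± 3.04 RPM in the WT (SD, n = 4 and 3), a change of 1.92 ± 0.42 (SE) on the log2 scale, adjusted p = 0.0239 in limma with a 95% interval of 1.0 to 2.85. Without that pair the log2 fold change was 2.05 (limma adjusted p = 0.00154). The call was lost in limma with voom weights on the recovered reads (adjusted p = 0.0562), without a filter on low values (adjusted p = 0.151), and without cKO replicate 1 (0.0661), cKO replicate 3 (0.0679), WT replicate 1 (0.102) or WT replicate 2 (0.116).

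The single entry under the name Pcgf2 was a short transcript at the 5′ end of the gene. It spans chr11:97697173-97700497 on the minus strand of GRCm38, 3325 bases, and holds 0% of the coding bases of Pcgf2 in GENCODE M21. The first coding base lies 6970 bases from the start of the entry and 3645 bases beyond its end, so the 9 coding blocks were not part of the count. The level of the coding transcript was therefore not measured by this entry. When only entries with at least 50% of the coding bases were counted, 0 of 28 members tested passed the threshold in limma, with 2 at an unadjusted p under 0.05 (Jarid2 and Pcgf5), and 0 passed in limma with voom weights, with 4 at an unadjusted p under 0.05. The RefSeq start of Pcgf2 lies 849 bases inside the entry, so the promoter before that start, printed below with CG in capitals because it falls within the transcribed stretch, was itself covered by the entry.
Pcgf2, chr11:97699649-97699898, minus strand: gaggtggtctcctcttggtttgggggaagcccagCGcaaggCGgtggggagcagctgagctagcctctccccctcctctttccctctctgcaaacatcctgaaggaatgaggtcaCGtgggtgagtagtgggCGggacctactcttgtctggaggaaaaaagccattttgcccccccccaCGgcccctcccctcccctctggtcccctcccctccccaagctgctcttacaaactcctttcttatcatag
It held 5 CG, and 55.6% of all RefSeq promoters held at least as many. On the opposite strand, 2733 bases beyond the start of the entry, lies Psmb3, a proteasome subunit gene, at 246 ± 72.5 RPM in the cKO and 167 ± 64.9 RPM in the WT (SD, n = 4 and 3), a change of 0.57 ± 0.31 (SE) on the log2 scale, adjusted p = 0.316 in limma.

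**Figure D3:**
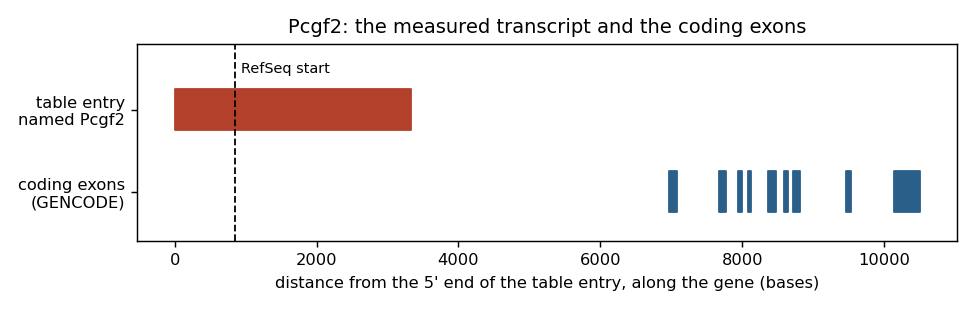
The table entry named Pcgf2 (upper bar, 3325 bases) and the 9 coding blocks of the gene in GENCODE M21 (lower bars), by distance in bases from the 5′ end of the entry. The RefSeq start (dashed line, 849 bases) falls inside the entry, and the first coding block begins 3645 bases beyond its end.

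Bmi1, the paralog of Pcgf2 in canonical PRC1, averaged 103 ± 25.0 RPM in the cKO and 124 ± 27.1 RPM in the WT (SD, n = 4 and 3), a change of -0.26 ± 0.25 (SE) on the log2 scale, adjusted p = 0.61 in limma with overlapping groups. Pcgf1 averaged 1242 ± 305 RPM in the cKO and 1490.1 ± 459 RPM in the WT (SD, n = 4 and 3), a change of -0.25 ± 0.28 (SE) on the log2 scale, adjusted p = 0.672 in limma. Pcgf6, the PCGF subunit of a variant PRC1 that keeps germline genes off in embryonic cells, averaged 129 ± 9.41 RPM in the cKO and 159 ± 22.9 RPM in the WT (SD, n = 4 and 3), a change of -0.29 ± 0.20 (SE) on the log2 scale, adjusted p = 0.443 in limma. Pcgf3, of a variant PRC1 close to that of Pcgf5, averaged 16.0 ± 3.31 RPM in the cKO and 14.4 ± 2.8 RPM in the WT (SD, n = 4 and 3), a change of 0.14 ± 0.25 (SE) on the log2 scale, adjusted p = 0.808 in limma. None of these 4 genes passed the test.

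Pcgf5 was measured at 6.14, 8.57, 13.6 and 5.01 RPM in the 4 cKO oocytes and 3.08, 5.16 and 2.43 RPM in the 3 WT oocytes. The lowest cKO oocyte, replicate 4, lay just under the highest WT oocyte, replicate 2, and the other 3 cKO oocytes lay above all WT oocytes. Its log2 fold change was 0.99 (SE 0.36, 95% interval 0.20 to 1.79) with an unadjusted p of 0.0192 and an adjusted p of 0.135 in limma, so it did not pass. The Pcgf5 entry begins 0 bases from an internal RefSeq start, while the first RefSeq start lies at -30738 bases relative to it, and the entry holds 100% of the coding bases. RefSeq lists 3 starts, and the promoters of the start at the head of the entry and of the first start are printed, with CG in capitals, because the one at the head of the entry is the CpG-poorest of the 3.
Pcgf5, start of the entry, chr19:36378817-36379066, plus strand: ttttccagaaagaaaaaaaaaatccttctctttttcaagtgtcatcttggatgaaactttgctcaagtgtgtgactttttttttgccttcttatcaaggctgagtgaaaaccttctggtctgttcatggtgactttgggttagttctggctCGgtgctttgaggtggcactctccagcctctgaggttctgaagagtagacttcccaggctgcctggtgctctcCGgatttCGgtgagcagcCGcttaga
Pcgf5, first start, chr19:36348079-36348328, plus strand: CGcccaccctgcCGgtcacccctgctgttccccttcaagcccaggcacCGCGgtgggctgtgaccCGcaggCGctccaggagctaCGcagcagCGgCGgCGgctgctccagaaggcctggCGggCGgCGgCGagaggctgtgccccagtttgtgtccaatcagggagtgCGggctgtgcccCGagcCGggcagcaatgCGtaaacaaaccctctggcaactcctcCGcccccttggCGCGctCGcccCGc
The promoter at the head of the entry held 4 CG, a count reached by 62.2% of all promoters, the first one held 23 CG, a count reached by 13.3%, and the third, 30681 bases into the entry and not printed, held 28 CG, a count reached by 7.61%.

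**Figure D4:**
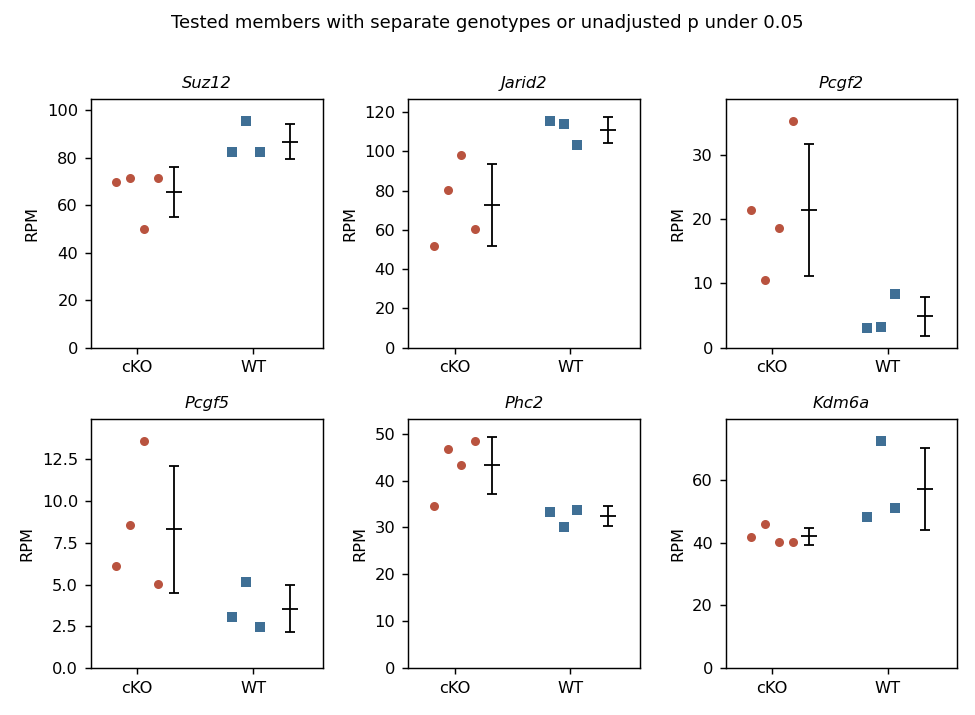
RPM in each oocyte for the 6 tested members whose genotypes did not overlap or whose unadjusted p was under 0.05. Points are oocytes (4 Setd1b cKO, 3 Setd1b WT), and the bars give mean and SD. Pcgf2 and Phc2 lie higher in every cKO oocyte, Suz12, Jarid2 and Kdm6a lie lower in every cKO oocyte, and Pcgf5 overlaps in 1 cKO oocyte. Pcgf2 alone passed the adjusted test.

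Among the CBX, PHC and SCMH1 subunits of canonical PRC1 that were measured, Cbx2 was the chromodomain gene with a clear level, while Cbx6 was not analysed. Cbx2, which reads H3K27me3 and compacts chromatin, averaged 26.3 ± 5.31 RPM in the cKO and 23.3 ± 2.91 RPM in the WT (SD, n = 4 and 3), a change of 0.15 ± 0.24 (SE) on the log2 scale, adjusted p = 0.774 in limma. Cbx7 came to 0.76 RPM in the cKO and 0.583 RPM in the WT on average, from 4 to 18 reads a library. Cbx8 came to 0.716 and 0.291 RPM, from 0 to 15 reads, and neither gene was tested. Phc2, one of the Polyhomeotic genes whose proteins join PRC1 complexes to each other, was measured at 34.6, 46.7, 43.4 and 48.4 RPM in the 4 cKO oocytes and 33.4, 30.0 and 33.8 RPM in the 3 WT oocytes. Its groups did not overlap, with the lowest cKO oocyte less than 1 RPM above the highest WT oocyte, and the difference did not pass, with a change of 0.40 ± 0.21 (SE) on the log2 scale, adjusted p = 0.307 in limma. The entry used for Phc2 holds the 3′ part of the gene and 46.4% of its coding bases. Phc1, its paralog, was near even at 23.9 ± 1.09 RPM in the cKO and 24.9 ± 3.61 RPM in the WT (SD, n = 4 and 3), a change of -0.05 ± 0.21 (SE) on the log2 scale, adjusted p = 0.927 in limma. Phc3 averaged 4.58 ± 2.06 RPM in the cKO and 6.19 ± 0.595 RPM in the WT (SD, n = 4 and 3), a change of -0.44 ± 0.33 (SE) on the log2 scale, adjusted p = 0.503 in limma. Scmh1, a further canonical subunit, averaged 20.3 ± 3.53 RPM in the cKO and 18.9 ± 1.82 RPM in the WT (SD, n = 4 and 3), a change of 0.09 ± 0.23 (SE) on the log2 scale, adjusted p = 0.873 in limma. The 7 genes summed to 115 to 124 RPM in the cKO and 104 to 108 RPM in the WT without overlap, but without Phc2 the sums were 69.5 to 80.9 RPM and 73.7 to 74.4 RPM, which overlapped.

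No subunit specific to variant PRC1 passed the test. Kdm2b, which brings the Pcgf1 complex to unmethylated CpG islands, was the most abundant of them at 207 ± 23.1 RPM in the cKO and 171 ± 36.4 RPM in the WT (SD, n = 4 and 3), with a change of 0.29 ± 0.21 (SE) on the log2 scale, adjusted p = 0.49 in limma. Rybp, which stimulates the ligase and binds its product, averaged 31.3 ± 10.1 RPM in the cKO and 28.1 ± 8.06 RPM in the WT (SD, n = 4 and 3), a change of 0.14 ± 0.29 (SE) on the log2 scale, adjusted p = 0.839 in limma. Its paralog Yaf2 averaged 19.9 ± 4.76 RPM in the cKO and 17.1 ± 2.03 RPM in the WT (SD, n = 4 and 3), a change of 0.19 ± 0.25 (SE) on the log2 scale, adjusted p = 0.739 in limma. L3mbtl2, a subunit of the Pcgf6 complex, averaged 25.3 ± 5.97 RPM in the cKO and 27.4 ± 5.62 RPM in the WT (SD, n = 4 and 3), a change of -0.13 ± 0.26 (SE) on the log2 scale, adjusted p = 0.84 in limma. An entry of the other strand, also named L3mbtl2, shares 2130 bases with that of L3mbtl2. It averaged 21.9 RPM in the cKO and 35.1 RPM in the WT, and reads of the overlap cannot be told apart. For all 4 genes the genotypes overlapped and the 95% interval lay within 2-fold.

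The genes for removal of the marks did not pass either. Kdm6a, the H3K27 demethylase also called Utx, was measured at 41.8, 46.0, 40.3 and 40.3 RPM in the 4 cKO oocytes and 48.3, 72.5 and 51.0 RPM in the 3 WT oocytes. The 4 cKO oocytes were close to each other and all lay below the WT, with a change of -0.41 ± 0.22 (SE) on the log2 scale, adjusted p = 0.302 in limma. Kdm6b, the demethylase also called Jmjd3, was measured at 34.3, 66.4, 36.9 and 15.3 RPM in the 4 cKO oocytes and 57.5, 44.2 and 29.1 RPM in the 3 WT oocytes. Its spread between oocytes was the widest of the members tested by standard error, and the groups overlapped, with a change of -0.30 ± 0.42 (SE) on the log2 scale, adjusted p = 0.745 in limma. Bap1, the deubiquitinase that takes ubiquitin off H2A, was measured at 24.2, 32.3, 21.5 and 17.4 RPM in the 4 cKO oocytes and 35.4, 20.4 and 23.9 RPM in the 3 WT oocytes. No separation was seen for it, with a change of -0.15 ± 0.28 (SE) on the log2 scale, adjusted p = 0.821 in limma. The BAP1 cofactors Asxl1 and Asxl2 had log2 fold changes of -0.01 (SE 0.20) and 0.53 (SE 0.30), from means of 59.3 and 7.71 RPM in the cKO and 60.4 and 4.92 RPM in the WT (limma adjusted p = 0.981 and 0.343).

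Of the 30 members tested, 5 (16.7%) had no overlap between the genotypes, namely Pcgf2 and Phc2 higher in the cKO, and Suz12, Jarid2 and Kdm6a lower. Among all entries tested 20.3% had no overlap, 13.2% higher and 7.14% lower in the cKO, so the share among members was not above that of all entries.

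Both members of a pair are read in the same library, so a change in its scaling largely cancels in their ratio, except for low genes, where the 1 RPM added to each gene weighs more. The log2 ratio was compared between genotypes for 8 pairs of paralogs by an exact two-sided permutation test, which cannot go below p = 0.0286 with 4 against 3 oocytes. Ezh1 to Ezh2 averaged -3.27 ± 0.55 in the cKO and -2.64 ± 0.37 in the WT, a difference of -0.63 (exact permutation p = 0.143). Bmi1 to Pcgf2 averaged 2.31 ± 0.93 and 4.49 ± 1.0 (SD), a difference of -2.18 (exact permutation p = 0.0857), with the Pcgf2 entry as above. Phc1 to Phc2 averaged -0.82 ± 0.21 and -0.37 ± 0.29 (SD), a difference of -0.45 (exact permutation p = 0.0857). The other pairs differed by 0.34 for Rbbp4 to Rbbp7, -0.11 for Kdm6a to Kdm6b, -0.05 for Rybp to Yaf2, -0.54 for Asxl1 to Asxl2 and 0.10 for Ring1 to Rnf2, the last limited by the 0 reads of Ring1. None of the 8 passed at 0.05, and the lowest Benjamini-Hochberg adjusted value was 0.286.

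Many members had their lowest value in the same oocyte of a genotype. Of the 30 tested, 17 had their lowest cKO value in replicate 4, and 20 had their lowest WT value in replicate 3, with 16 genes in both counts. Conversely, 7 had their highest cKO value in replicate 4 and 7 their highest WT value in replicate 3, with 6 genes in both. These libraries deviated from their group means in the same direction over all entries (r = 0.608 across entries, which are not independent), and each had the fewest reads of its genotype. The standard error of the log2 fold change ranged from 0.20 to 0.42 among the members.

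Outside the 36 genes, 39 other gene symbols of the pathway were read in the same way (Skp1 and Skp1a name the same gene): accessory proteins, variant PRC1 partners, other H2A deubiquitinases and factors that recruit the complexes. Of these 29 had an entry under their name and 27 were tested, of which 0 passed the threshold in limma, with 3 at an unadjusted p under 0.05 against 21.7% of all entries. In limma with voom weights 1 passed the threshold, with 4 at an unadjusted p under 0.05. Adjusted p was under 0.05 with less than a 2-fold change for 2 of the 27, a share near the 6.15% of all entries, so the 2 genes are given for their values and nothing is read from their number. Sfmbt1, a protein with MBT domains found in a Polycomb-related complex, was measured at 98.2, 101, 85.2 and 75.6 RPM in the 4 cKO oocytes and 177, 201 and 129.9 RPM in the 3 WT oocytes. Every cKO oocyte lay below every WT oocyte, with a change of -0.89 ± 0.22 (SE) on the log2 scale, adjusted p = 0.0417 in limma, which passed 2-fold, at -1.04 (limma adjusted p = 0.0233), once the median gene of every library was set equal. It also passed in limma with voom weights on the recovered reads, at -1.03 (adjusted p = 0.031). The adjusted p was above 0.05 under 8 of 19 alternatives, namely without a filter, with reads within transcripts as the total, without a variance trend, and without cKO replicate 1, 2 or 3 or WT replicate 1 or 2, and reached 0.188 at the highest. Fbrsl1, a relative of the variant PRC1 subunits AUTS2 and FBRS, was measured at 61.4, 60.9, 55.7 and 72.0 RPM in the 4 cKO oocytes and 31.1, 36.5 and 35.2 RPM in the 3 WT oocytes. It was higher in every cKO oocyte, with a change of 0.85 ± 0.20 (SE) on the log2 scale, adjusted p = 0.0335 in limma. For Fbrsl1 the adjusted p was above 0.05 under 9 of 19 alternatives, namely with equal library medians, with voom weights, without a variance trend, and without any single library except cKO replicate 4, and reached 0.141 at the highest. Scml2, an MBT-domain relative of Scmh1, named after its values were seen, was measured at 32.3, 42.3, 26.6 and 24.9 RPM in the 4 cKO oocytes and 64.4, 76.4 and 41.3 RPM in the 3 WT oocytes. The groups overlapped, with cKO replicate 2 above WT replicate 3, and the difference did not pass the threshold, with a change of -0.91 ± 0.28 (SE) on the log2 scale, adjusted p = 0.0812 in limma. It passed with equal library medians (-1.06, limma adjusted p = 0.0464), without WT replicate 3 (-1.16, 0.0398) and without both libraries that stood apart (-1.06, 0.0106). The 6 with the highest mean RPM over the 7 oocytes, not corrected for length, were Skp1a, matched by position (5425 RPM in the cKO and 5473 RPM in the WT), Csnk2b (259 and 226), Usp7 (208 and 203), Rest (141 and 178), Sfmbt1 (90.0 and 169, its place resting on the WT) and Usp16 (105 and 128).

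Genes that Polycomb is known to repress could be read in part. Of 45 listed, 39 Hox genes and 6 symbols of genes imprinted through maternal H3K27me3 (Jade1 and Phf17 name the same gene), 12 had an entry under their name and 4 of these were tested. Hoxd13 was measured at 1.78, 1.89, 3.57 and 3.15 RPM in the 4 cKO oocytes and 0.405, 0.0771 and 0.374 RPM in the 3 WT oocytes, with every cKO value above every WT value. It passed the filter through the cKO oocytes alone, so that a gene admitted in this way had to differ, and its adjusted p of 0.0184 in limma (0.064 without a filter) is not read as support. Hoxa7, found by position in an entry named Hoxaas3, was measured at 64.4, 66.1, 68.4 and 34.3 RPM in the 4 cKO oocytes and 37.6, 13.7 and 17.1 RPM in the 3 WT oocytes. It rose with a change of 1.4 ± 0.36 (SE) on the log2 scale, adjusted p = 0.0469 in limma, although cKO replicate 4 lay below WT replicate 1, and the call was lost under 12 of the 19 alternatives tried. With 5 target genes tested, 1 of them by position, no share can be read against the 3.76% of all entries called higher. The remaining 16 of the 21 targets with any entry stayed under the filter, with means up to 0.65 RPM, and the other 24 of the 45 were not analysed here.

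**Figure D5:**
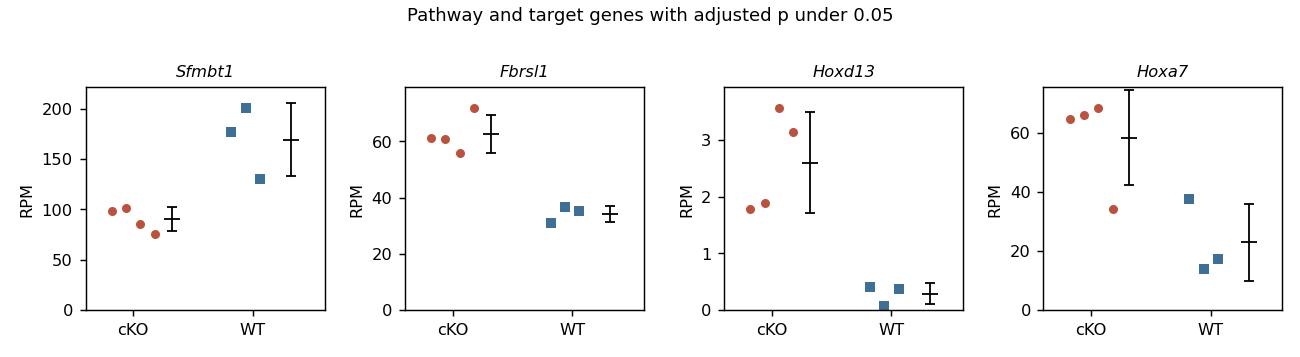
RPM in each oocyte for the pathway genes Sfmbt1 and Fbrsl1 and the Polycomb target genes Hoxd13 and Hoxa7, those with a limma adjusted p under 0.05. Points are oocytes (4 Setd1b cKO, 3 Setd1b WT), and the bars give mean and SD. Sfmbt1 is lower and Fbrsl1 and Hoxd13 are higher in every cKO oocyte, and Hoxa7 overlaps.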

How the data were processed

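The values analysed were deposited as log2 RPM per oocyte transcript, made by the authors by trimming with trim galore, mapping with Hisat to GRCm38, removing reads under a mapping quality of 20 and counting in SeqMonk over oocyte transcripts with merged isoforms, scaled to all mapped reads. The submitters' processing notes also name bcl2fastq 1.8.4 and featureCounts 1.4.4. The strand setting is not given in the sources used here. An entry with no read was listed at 0.9 read, and 2 to the power of each value gave whole reads for 100% of values in every library (within 0.02 of a read, or 0.001 of the value), so 0 was restored there.

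Setd1b cKO (n = 4) was compared with Setd1b WT (n = 3), as labelled, by limma 3.58.1 (R 4.3.3) with a trended variance on log2(RPM + 1), for the 18179 entries that reached 1 RPM in 3 or more libraries. A fold change on this scale understates the change of low genes. The threshold was a Benjamini-Hochberg adjusted p under 0.05 and over 2-fold, as in the study's methods. The members, lists and tests were chosen with earlier results of these data known. Values in every library are given for members with an adjusted p under 0.05, Ezh1, Ezh2, Eed, Suz12, Ring1, Rnf2, Kdm6a, Kdm6b and Bap1, and others (Jarid2, Phf19, Phc2, Pcgf5, Scml2) were added after their values were seen. Paralog ratios were tested by exact permutation (scipy 1.17.1). On simulated reads, 186 of 200 genes changed 4-fold, all with a mean above 2 RPM, were recovered among 17631 tested, with 194 called. When none changed, 0 were called. The simulated spread was the typical one of genes of like level, drawn for each gene alone, so deviations shared within a library were absent. Recovery of 2-fold changes was not simulated. Levels per kilobase used the exons of GENCODE M21, and promoters came from RefSeq (GRCm38.p6), which held 31 of the 36 members. Alternatives covered the pseudocount, filter, scaling, variance model, replicate block, voom on recovered reads and each library left out.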

Additional observations from a re-analysis of the deposited data

Results flagged for a closer look

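In 3 of 43 values examined, 1 cKO oocyte lay far from the other 3, by the gap to its nearest neighbour as a share of the whole range (beyond Dixon's 95% critical value, which chance alone exceeds in about 1 of 20 groups). Suz12 in cKO replicate 3 was the lowest at 50.1 RPM, against 69.6 to 71.5 RPM in the others, a gap of 0.909 of the range. Cbx7 in cKO replicate 3 was the highest at 1.57 RPM, against 0.412 to 0.594 RPM in the others, a gap of 0.842 of the range from few reads. Kdm2b in cKO replicate 4 was the highest at 242 RPM, against 193 to 197 RPM in the others, a gap of 0.92 of the range.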

How the results depend on the processing

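The number of entries past the threshold, 1038 as measured, was 553 with a pseudocount of 5 RPM and 303 without a filter, where more entries are tested, and 280 to 1287 when each library was left out. The split of higher against lower entries moved from 683 and 355 to 458 and 531 with equal library medians, 428 and 442 with quantile normalisation, 836 and 310 with reads within transcripts as the total, and 327 and 415 with voom on recovered reads. The count of Polycomb group genes, 1, became 0 without a filter, 0 with voom, 0 when the entry had to hold at least 50% of the coding bases (chosen after seeing the data), and 0 to 1 with 1 library left out, and it stayed at 1 under 13 other settings. The count of other pathway genes, 0, became 2 with equal library medians (Sfmbt1 and Scml2, both lower), 1 without the pair that stood apart (Scml2, lower, chosen after seeing the data), and 0 to 2 with 1 library left out, the 2 being Sfmbt1 and Scml2 without WT replicate 3. The count of target genes, 1 (Hoxd13, admitted by the filter through the cKO alone), became 0 without a filter, 2 without that pair, 2 with genes matched by position, and 0 to 2 with 1 library left out. The cause of these changes was not tested. Of Ezh1, Ezh2, Eed, Suz12, Rnf2, Kdm6a, Kdm6b, Bap1, Jarid2, Pcgf2, Pcgf5 and Phc2, which were refitted under 20 alternatives, signs turned for Eed, Rnf2, Kdm6b and Bap1, none of them called. Eed, at -0.04, was 0.011 with quantile normalisation, 0.038 with reads within transcripts, 0.081 without that pair, and -0.20 to 0.15 with 1 library left out. Rnf2, at -0.04, was 0.035 with reads within transcripts and -0.30 to 0.16 with 1 library left out. Kdm6b, at -0.30, ranged from -0.62 to 0.061, and Bap1, at -0.15, from -0.31 to 0.073, with 1 library left out. The ratio of Kdm6a to Kdm6b ranged from -0.45 to 0.17, that of Rybp to Yaf2 from -0.39 to 0.21, and that of Ring1 to Rnf2 from -0.05 to 0.30.

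Replicate numbers did not pair the oocytes: the deviations of same-numbered libraries correlated at r = 0.192, 0.295 and -0.129. With the replicate number as a block, in which cKO replicate 4 has no partner, 924 entries were higher and 479 lower, 1 Polycomb group gene, 0 other pathway genes and 2 target genes passed, and Eed stood at 0.15, Rnf2 at 0.16 and Kdm6b at 0.061. At 1 read per 0.0771 to 0.117 RPM, depth limits Ring1, Cbx7, Cbx8 and Phf19.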

Other observations

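Entries on the strand opposite to a Polycomb group gene numbered 20, and 12 of them were tested. Of these 1, named 2500004C02Rik, passed the threshold, a share near the 5.71% of all entries that did so. It overlaps 2609 bases of Asxl1 and was measured at 17.1, 15.0, 9.93 and 11.7 RPM in the 4 cKO oocytes and 4.37, 3.62 and 3.27 RPM in the 3 WT oocytes. Every cKO oocyte lay above every WT oocyte, with a change of 1.58 ± 0.27 (SE) on the log2 scale, adjusted p = 0.00955 in limma. Asxl1 itself, at 59.3 ± 2.46 RPM in the cKO and 60.4 ± 10.5 RPM in the WT (SD, n = 4 and 3), differed by -0.01 ± 0.20 (SE) on the log2 scale, adjusted p = 0.981. The reads of the 2 strands cannot be told apart where they overlap. Phf7, opposite to Bap1, was measured at 52.5, 52.8, 90.9 and 94.7 RPM in the cKO and 29.6, 25.0 and 57.0 RPM in the WT, a change of 0.98 ± 0.33 (SE) on the log2 scale, adjusted p = 0.112, which did not pass. Both were named after their values were seen.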
